A study of Rattus norvegicus with 6 samples.

Results

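Nicotinic acetylcholine receptor subunits were followed in the rat hippocampus after noise exposure. The members are the 9 neuronal subunit genes Chrna2, Chrna3, Chrna4, Chrna5, Chrna6, Chrna7, Chrnb2, Chrnb3 and Chrnb4, taken by gene symbol from 20155 genes with a symbol of their own on the array. Each of the 9 had 1 transcript cluster, the set of probes that reads a gene, so that no choice between clusters was needed. The family was selected on the measured difference of Chrna3, which the study lists as lower on these same arrays, and the values of Chrna3 are therefore given as a description. Female Sprague-Dawley (SD) rats of weanling age heard white noise of 2 to 20 kHz (115 dB SPL, 4 hours daily, 3 days), or were kept in an identical chamber at background sound. All the rats were anesthetized for a hearing test before the tissue was taken, in the control group as well. The labels name the tissue hippocampus, and the methods describe a dissection guided by the dorsal CA3 region. Affymetrix Rat Gene 2.0 ST arrays gave the expression of 3 control samples (ctl1, ctl2 and ctl6) and 3 noise samples (wn2, wn3 and wn4), each with RNA pooled from 2 rats. The values are log2 signals after the Robust Multi-Array Average, and levels of different genes are not compared because each has its own probes.

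These receptors are pentameric cation channels in the cell membrane that open when acetylcholine binds. The alpha subunits alpha2, alpha3, alpha4, alpha6 and alpha7 carry the main face of the binding site, beta2 and beta4 complete it in mixed receptors, and alpha5 and beta3 are accessory subunits that modify the channel. In the rodent brain, receptors with alpha4 and beta2 and receptors made of alpha7 are the common forms, and both are known from the hippocampus. Receptors with alpha3 and beta4 are known for the medial habenula, a small cholinergic nucleus near the hippocampus, and for autonomic ganglia.

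Chrna5, Chrna3 and Chrnb4 are neighbours on rat chromosome 8, with no other protein-coding gene between them in the RefSeq annotation of assembly GRCr8. Chrna6 and Chrnb3 are likewise neighbours on chromosome 16. Upstream sequence of 250 bases was found in RefSeq (GRCr8) for 6 of the 9 genes, all but Chrna2, Chrna6 and Chrnb3. It was searched on both strands for the GC box GGGCGG, the recognition word of Sp-family transcription factors, and no other motif was searched. All 6 windows held it, with 4 matches for Chrna5, 3 for Chrna4, 2 for Chrna3 and 1 each for Chrnb4, Chrna7 and Chrnb2. For comparison, 30.5% of all 33469 upstream windows held at least 1 match. The G and C content of these 6 windows lay between 59.6% for Chrnb2 and 74.4% for Chrna4, against a median of 51.2% over all windows. The windows of Chrna5, Chrna3 and Chrnb4 are printed because these genes are neighbours. Each is read 5′ to 3′ on the strand of its gene and ends at the base before the annotated start, and capitals mark the GC boxes. The positions are chr8:64265629-64265878 (plus strand) for Chrna5, chr8:64311252-64311501 (minus strand) for Chrna3 and chr8:64333110-64333359 (minus strand) for Chrnb4.
Chrna5: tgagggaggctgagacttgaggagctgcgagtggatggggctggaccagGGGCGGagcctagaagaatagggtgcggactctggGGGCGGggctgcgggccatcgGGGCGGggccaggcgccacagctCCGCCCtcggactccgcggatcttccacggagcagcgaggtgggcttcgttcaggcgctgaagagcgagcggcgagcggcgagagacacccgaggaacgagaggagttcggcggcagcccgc
Chrna3: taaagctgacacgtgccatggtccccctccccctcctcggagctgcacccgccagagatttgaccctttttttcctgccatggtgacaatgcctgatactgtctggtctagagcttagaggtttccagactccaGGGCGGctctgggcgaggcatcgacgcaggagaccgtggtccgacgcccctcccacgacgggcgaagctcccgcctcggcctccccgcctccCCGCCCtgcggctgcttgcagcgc
Chrnb4: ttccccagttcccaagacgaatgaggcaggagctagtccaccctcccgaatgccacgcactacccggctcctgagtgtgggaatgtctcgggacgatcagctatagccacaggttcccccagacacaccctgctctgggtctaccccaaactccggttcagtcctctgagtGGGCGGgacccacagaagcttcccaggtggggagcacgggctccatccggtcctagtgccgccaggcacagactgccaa
The GC box closest to the start lay 18 bases upstream for Chrna3, 73 for Chrnb4 and 116 for Chrna5. A match of letters is a description of the window and does not show that a factor binds there.

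Over all arrays, the 29489 clusters had a median signal of 5.05 on each array, and Pearson's r between arrays lay between 0.981 and 0.991 across clusters. Clusters are not independent replicates, and the number of arrays limits the precision. The labels do not say whether pools came from separate litters or days, so p-values measure the spread between these pools. Noise and control arrays were compared with limma, whose variance for a cluster draws on all the others, and Benjamini-Hochberg adjustment covered the whole array. A gene was called lower or higher where its signal differed by 1.5-fold or more with an unadjusted p no greater than 0.05. By this rule 0.882% of all clusters were lower and 0.58% were higher in the noise group.

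Of the 9 subunits, 1 was called lower (Chrna3), none was called higher and 8 did not pass. Nothing is read from the call of Chrna3, since the selection used it. No subunit reached an adjusted p of 0.05, and the adjusted p-values lay between 0.365 and 0.899 from limma. Of the 8 subunits other than Chrna3, 1 (Chrnb3) had an unadjusted p of at most 0.05, while 10.1% of all clusters reached that level, and 0.0102% of clusters passed after adjustment. The median log2 difference of the 9 was -0.15, against 0.01 over all clusters. This median includes Chrna3, on which the family was selected, and is given as a description. The sign was negative for 5 of the 8 other than Chrna3, and for 48.7% of all clusters. In signal, 6 of the 9 were at or above the median cluster, which 50% of clusters are by construction, and Chrna2, Chrna6 and Chrnb3 were below it. Signal depends on the probes, so this does not rank the expression of the subunits. Every noise array was below every control array for Chrna3, and among the other 8 subunits for 1 (Chrnb3), as for 8.06% of all clusters. No subunit was above the controls on every noise array, where 8.45% of all clusters were.

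**Figure D1:**
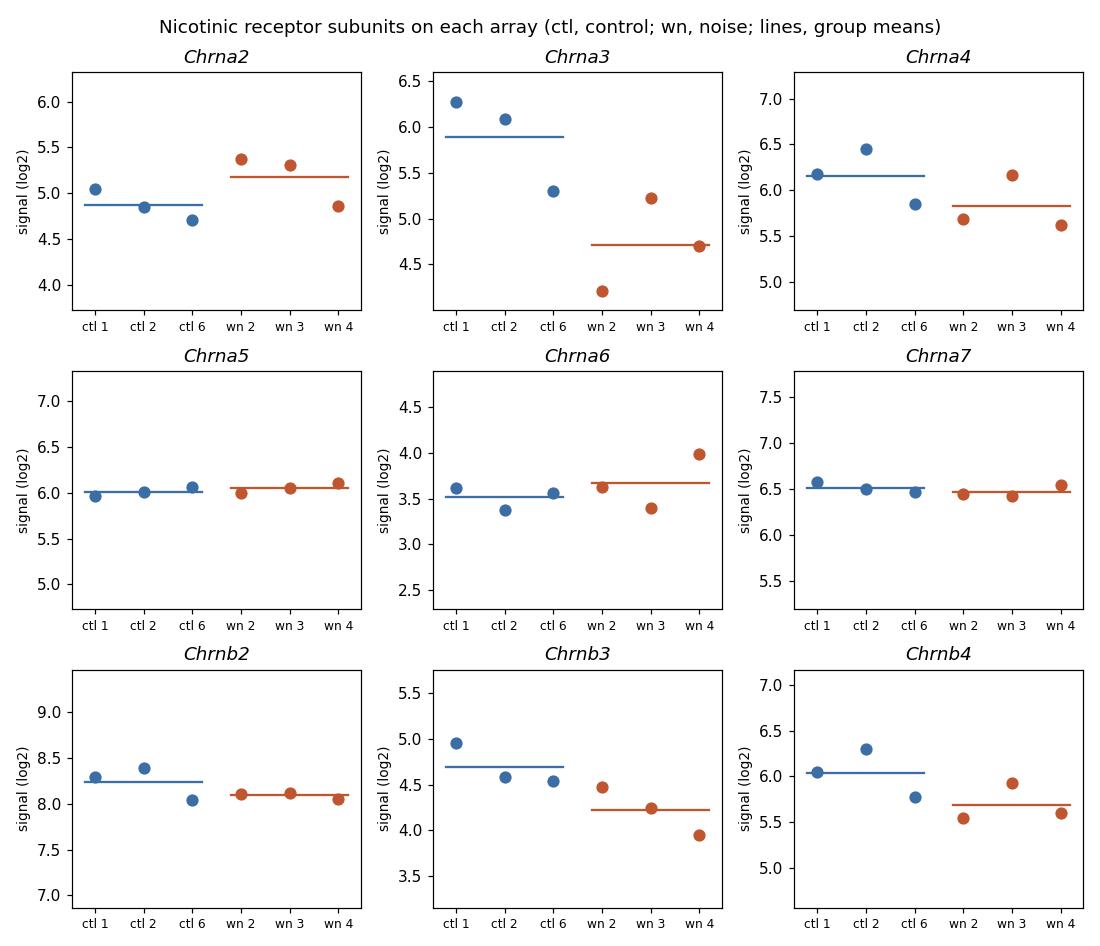
Log2 signal of each of the 9 subunit genes (vertical axis, the same span of 2.6 log2 units in every panel) on the 3 control arrays (ctl, blue) and the 3 noise arrays (wn, orange), with lines at the group means. Chrna3 shows the widest step, from a mean of 5.89 to 4.71, while Chrna5 and Chrna7 lie almost flat.

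Chrna3, the subunit that binds acetylcholine in receptors of the alpha3 beta4 type, differed most among the members. Its log2 signal was 6.27 (ctl1), 6.09 (ctl2) and 5.30 (ctl6), against 4.21 (wn2), 5.23 (wn3) and 4.71 (wn4). The groups did not overlap, but ctl6 and wn3 were only 0.0719 apart, and the other 4 arrays lay well to either side. The group means were 5.89 ± 0.52 (SD, n = 3) in controls and 4.71 ± 0.51 (SD, n = 3) after noise. The log2 difference was -1.17 (standard error 0.32), a signal 2.26-fold lower with a 95% interval of 1.35 to 3.77. Since the study listed Chrna3 from these arrays, the value is no independent evidence of its direction. The study also reports Chrna3 lower by quantitative PCR in the hippocampus of other rats. In temporal cortex it reports no significant difference. The spread within the groups was wide, and 98.6% of all clusters had a smaller one. In a bulk sample, fewer cells that express a gene and less RNA per cell cannot be told apart.

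Chrnb4, the beta subunit that partners alpha3 and lies beside it on chromosome 8, was lower by a smaller amount and did not pass. It was at 6.05 (ctl1), 6.30 (ctl2) and 5.77 (ctl6), and at 5.55 (wn2), 5.93 (wn3) and 5.60 (wn4). Only wn3 lay within the range of the control arrays. The log2 difference was -0.35 with a 95% interval from -0.73 to 0.03 (adjusted p = 0.521 from limma), and without ctl2 it was -0.22.

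Chrna5, the accessory subunit at the other end of the same locus, was level across all the arrays. Its signal was 5.96, 6.01 and 6.06 on ctl1, ctl2 and ctl6 and 6.0, 6.06 and 6.10 on wn2, wn3 and wn4. The whole set of 6 values thus lay within a narrow band, and only 3.73% of all clusters had a smaller spread within the groups. The difference was 0.04 on the log2 scale, with a 95% interval from -0.16 to 0.25, and that interval excludes a change of 1.5-fold in either direction. Whether the differences of Chrna5 and Chrna3 are themselves unequal was not tested, since Chrna3 was selected for its own.

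Other genes around the locus were given by a list. Psma4, a proteasome subunit next to Chrna5, had a log2 difference of 0.03, Hykk, a hydroxylysine kinase, -0.12, and Ireb2, an iron regulatory protein, -0.01. Adamts7, a protease gene that is not next to the locus in GRCr8, had 0.21. None of these 4 was called, and their adjusted p-values were 0.947, 0.746, 0.99 and 0.657 from limma.

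Chrnb3, an accessory subunit known from dopamine neurons and the habenula, was the other member with separate groups. It had signals of 4.96 (ctl1), 4.58 (ctl2) and 4.54 (ctl6), against 4.47 (wn2), 4.25 (wn3) and 3.95 (wn4). The gap between ctl6 and wn2 was 0.0644. The log2 difference was -0.47 with a 95% interval from -0.87 to -0.07, below the fold threshold (adjusted p = 0.439 from limma). Without noise array 2 it reached both thresholds, at -0.59.

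Chrna6, which joins beta3 in receptors of dopamine neurons and neighbours it on chromosome 16, had overlapping groups. It was at 3.62, 3.37 and 3.56 in the controls and at 3.63, 3.40 and 3.99 after noise on wn2, wn3 and wn4. The groups overlapped, with ctl2 the lowest array and wn4 above the rest. The log2 difference was 0.16 with a 95% interval from -0.22 to 0.53 (adjusted p = 0.773 from limma), and without wn4 it was -0.0019.

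Chrna4 and Chrnb2, which form the common high-affinity receptor of the forebrain and thalamus, had negative differences that did not pass. Chrna4 was at 6.18 (ctl1), 6.45 (ctl2) and 5.85 (ctl6), and at 5.69 (wn2), 6.17 (wn3) and 5.62 (wn4). The groups overlapped, with wn3 next to ctl1. Its log2 difference was -0.33 with a 95% interval from -0.79 to 0.13 (adjusted p = 0.597 from limma). It ranged from -0.18 without ctl2 to -0.50 without wn3. Chrnb2 was at 8.29 (ctl1), 8.39 (ctl2) and 8.04 (ctl6), while wn2, wn3 and wn4 were at 8.11, 8.11 and 8.05. Here ctl6 was the lowest of all the arrays, and the noise arrays were close together within 0.0632. The log2 difference of Chrnb2 was -0.15 with a 95% interval from -0.41 to 0.12 (adjusted p = 0.689 from limma). Without ctl2 it was -0.07, and without ctl6 it was -0.25.

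Chrna7, which forms receptors of its own kind that are highly permeable to calcium, was also even across the arrays. Its signal was 6.57, 6.50 and 6.47 in the controls and 6.44, 6.42 and 6.54 on wn2, wn3 and wn4. The 2 groups overlapped, and 5.86% of all clusters had a smaller spread within the groups. The log2 difference was -0.04, and the 95% interval from -0.26 to 0.17 leaves out a 1.5-fold change (adjusted p = 0.899 from limma).

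Chrna2, a subunit known from a class of somatostatin interneurons of the rodent hippocampus, had the highest difference among the members. It was at 5.05 (ctl1), 4.85 (ctl2) and 4.71 (ctl6), and at 5.37 (wn2), 5.30 (wn3) and 4.86 (wn4). The noise arrays wn2 and wn3 were above all the controls, while wn4 lay between ctl1 and ctl2. The log2 difference was 0.31 with a 95% interval from -0.07 to 0.69 (adjusted p = 0.552 from limma), and without wn4 it was 0.47.

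**Figure D2:**
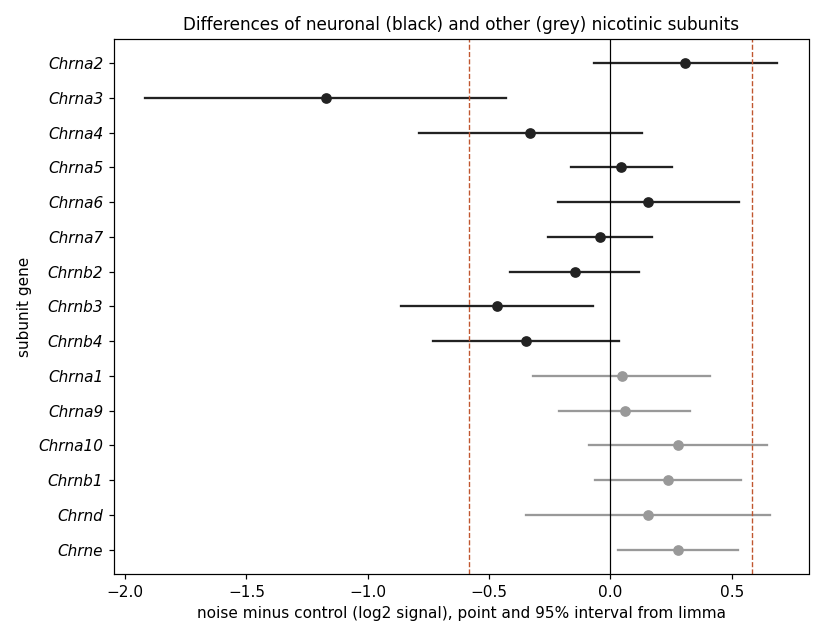
Noise minus control in log2 signal (horizontal axis) with 95% intervals from limma for the 9 neuronal subunits (black) and 6 other nicotinic subunits (grey); dashed lines mark a 1.5-fold change. Only the point of Chrna3, at -1.17, lies beyond a dashed line, and the intervals of Chrna5 and Chrna7 stay inside both.

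The remaining nicotinic subunits, of muscle and of the inner ear, were all above 0 in their differences, and none was called. Of 7 such genes, 6 had a cluster of their own, since the cluster of Chrng is shared with Eif4e2 and was left out. The 6 differences lay between 0.05 and 0.28 on the log2 scale, with a median of 0.20. Chrne, the epsilon subunit of adult muscle, was above all the controls on every noise array at 4.63, 4.87 and 4.90 against 4.56, 4.50 and 4.52, a log2 difference of 0.28 (adjusted p = 0.457 from limma). Chrna1 (0.05), Chrna9 (0.06), Chrna10 (0.28), Chrnb1 (0.24) and Chrnd (0.15) had groups that overlapped. All 6 clusters were below the array median.

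Proteins that help the receptors fold or that bind them were given as a further list of 14 genes, and none was called. Their log2 differences lay between -0.28 and 0.32, with a median of 0.04. Ric3, a chaperone of nicotinic receptors, had 0.10, and Tmem35, which encodes the alpha7 assembly factor NACHO, had 0.03. Lynx1 and Lypd6, relatives of snake toxins that modulate the receptors, had -0.03 and -0.08. At the ends of the range, Unc50, a Golgi protein that sorts nicotinic receptors in Caenorhabditis elegans, was at 0.32 (adjusted p = 0.392 from limma), and Vsnl1, a calcium sensor that binds alpha4, was at -0.28 (adjusted p = 0.479 from limma). Unc50 and Vsnl1 were chosen after their values were seen.

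Among the members, Chrna3, Chrna4, Chrnb2 and Chrnb4 shared a pattern within the groups that the difference between them does not fix. In all 4, ctl6 was the lowest control array and wn3 the highest noise array, although wn2 and wn3 were almost equal for Chrnb2. This held for 12.5% of all clusters and is given as a count that includes Chrna3. Of the markers given further on, it held for 5 of 13 of medial habenula, 5 of 11 of thalamus and 4 of 19 of choroid plexus. For hippocampal principal neurons and GABAergic interneurons it held for 0 of 9 and 2 of 10. Among the members, the pattern did not hold for Chrna2, Chrna5, Chrna6, Chrna7 or Chrnb3. Without ctl6 the groups were separate for 5 of the 9 (Chrna3, Chrna4, Chrnb2, Chrnb3 and Chrnb4), where 13.5% of all clusters were below the controls. Without wn3 they were separate for 4 in that direction (Chrna3, Chrna4, Chrnb3 and Chrnb4), where 12.8% of all clusters were. Both counts include Chrna3, and ctl6 and wn3 were picked from these same values. Leaving out the array nearest the other group makes separate groups likelier by construction. Without ctl1, ctl2 or wn2 the count was 2, where 12.3%, 12.3% and 12.6% of all clusters were below the controls. Without wn4 it was 3, where 14.8% were.

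Genes with a profile like that of Chrna3 were found by the root-mean-square difference between profiles over the 6 arrays, each gene centred on its own mean. Since a profile holds the step between the groups, genes that were lower after noise come first by construction. Of 20154 genes, the 5 nearest were Fmod, a collagen-binding protein (0.26 log2 units), Syt9, a synaptotagmin (0.28), Cldn2, a claudin of tight junctions (0.29), Zic1, a transcription factor (0.31), and Ace, the angiotensin converting enzyme (0.31). Syt9, Zic1, Cldn2 and Ace also stand in the marker lists given further on. Other genes of those lists were far from Chrna3, such as Chat, Rgs16, Kl and Ttr, with ranks of 16040, 19280, 19861 and 20153. The lists were chosen with earlier results of these data known, so the shared genes are given as a description. Fmod was at 6.65, 6.38 and 5.84 in the controls and 5.15, 5.46 and 5.49 after noise. Syt9 was at 5.40, 5.37 and 4.92 in the controls and 4.20, 4.89 and 4.23 after noise. In Syt9, as in Chrna3, ctl6 and wn3 nearly met. The nearest members were Chrnb4 and Chrna4, at 0.50 log2 units each, with ranks of 168 and 172.

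**Figure D3:**
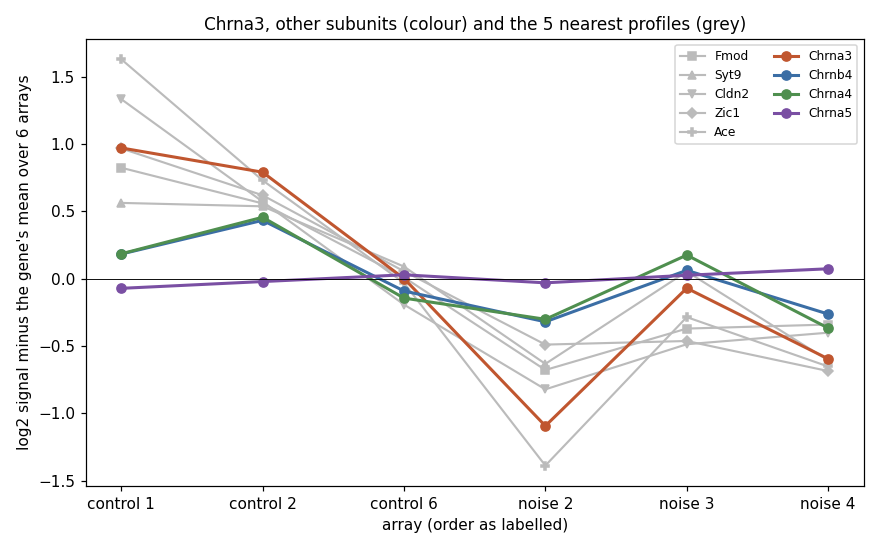
Log2 signal minus the mean of each gene over the 6 arrays (vertical axis) for Chrna3, Chrnb4, Chrna4 and Chrna5 (coloured) and for the 5 genes with the nearest profiles to Chrna3 (grey); lines only join the points of a gene, as arrays of a group have no order. Chrnb4 and Chrna4 dip at control 6 and peak at noise 3 within their groups, as Chrna3 does, while Chrna5 stays at the zero line.

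Some markers of tissue near the hippocampus were also lower after noise, and their part in the difference of Chrna3 was not tested. Of 13 medial habenula markers other than the receptor genes, 3 were lower (Gpr151, Slc5a7 and Syt9), none was higher and 10 missed the call, and the median log2 difference was -0.20. The study lists these 3 as lower from the same arrays, so the count is not independent evidence of its direction. Over all clusters, 0.882% were called lower and 0.58% higher, and the median log2 difference was 0.01. This list was chosen with earlier results of these data known. The summed linear signal of the list was 709 to 863 in the controls and 587 to 694 after noise. Such a sum, here and for the lists that follow, is carried by the brightest probes. Calb2 and Nwd2, named after their values were seen and not called, made up 39.6% to 53.2% of the habenula sum. Without them the sum was 397.3 to 425.5 in the controls and 339.4 to 375.8 after noise. Gpr151, an orphan receptor of habenular neurons, was at 4.09, 3.80 and 4.00 in the controls and 2.97, 3.01 and 3.18 after noise, a log2 difference of -0.91 (adjusted p = 0.147 from limma). For Slc5a7, which takes choline back into cholinergic endings, the log2 difference was -0.71 (adjusted p = 0.334 from limma), while Chat, the enzyme that makes acetylcholine, had a log2 difference of 0.19 (adjusted p = 0.536 from limma). The habenular transcription factor Pou4f1 was at 4.73, 4.84 and 4.88 in the controls and 4.54, 4.96 and 4.62 after noise, and its difference was -0.11. Tac1, a tachykinin of the dorsal part of the nucleus, had -0.12. Gpr151, Pou4f1, Tac1 and Chat were all below the array median.

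Some thalamus and choroid plexus markers were lower as well. By the same call, 0.882% of all clusters were lower and 0.58% were higher, and their median log2 difference was 0.01. Both marker lists were chosen with earlier results of these data known. Of 11 thalamus markers, 4 were lower, and the median log2 difference was -0.55. These were Lef1 (-0.78) and Zic1 (-1.09), both transcription factors, Slitrk6 (-1.15), a synaptic membrane protein, and Prkcd (-0.64), a protein kinase whose groups overlapped. No thalamus marker was called higher. The sign was negative for 9 of the 11, while Rgs16 and Gbx2 had positive differences of 0.36 and 0.06. The summed signal was 808 to 1285 in the controls and 803 to 846 after noise. Of the controls, ctl6 at 808 lay within the range of the noise arrays. Tcf7l2, another transcription factor of the thalamus, had a log2 difference of -0.48 (adjusted p = 0.433 from limma). Of 19 choroid plexus markers, 12 were lower (Ttr, Kl, Kcnj13, Slc4a5, Otx2, Clic6, F5, Cldn2, Enpp2, Sostdc1, Ace and Igf2) and 0 were higher. Their median was -1.14, from -4.26 for Ttr, which carries thyroid hormone in the cerebrospinal fluid, to -0.03, and Kl and Otx2 had -2.48 and -2.56. The water channel Aqp1, at -0.34, was not called. The summed signal was 2891 to 9239.7 in the controls and 1801 to 2026 after noise, with ctl6 the lowest of the controls. On ctl1 the brightest probes in this sum were those of Ttr (log2 signal 11.73) and Enpp2 (11.60). Several of these genes, such as Slitrk6, Kl and Slc4a5, are also on the list of the study.

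None of 9 markers of hippocampal principal neurons and none of 10 markers of GABAergic interneurons was called, with medians of 0.01 and 0.12. The hippocampal markers summed to 2319 to 2648 in the controls and 2155 to 2560 after noise. Prox1, Wfs1, Grik4 and Neurod6, which mark granule and pyramidal neurons, had log2 differences of -0.14, 0.01, -0.02 and 0.03. The interneuron markers summed to 1923 to 2061 in the controls and 2050 to 2415 after noise. Among them Gad1, which makes GABA, had 0.07, and Sst, the somatostatin of the cells known for Chrna2, had 0.29 (adjusted p = 0.649 from limma). Pvalb and Reln had 0.03 and -0.00.

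**Figure D4:**
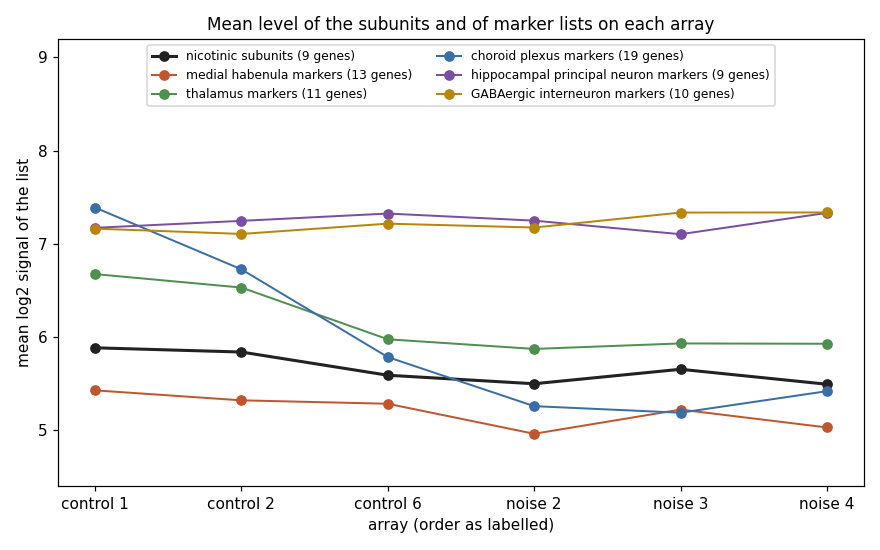
Mean log2 signal of the 9 nicotinic subunits and of 5 marker lists (vertical axis) on each array; lines only join the points of a list, and heights of different lists are not comparable. The choroid plexus and thalamus lists are high on ctl1 and ctl2 and lower on ctl6 and the noise arrays, while the hippocampal and interneuron lists stay near one level.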

How the data were processed

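Pooled hippocampal RNA of 3 control and 3 noise samples was hybridized to Affymetrix Rat Gene 2.0 ST arrays. The log2 values deposited by the authors came from GeneSpring GX, where the Robust Multi-Array Average at its default settings corrected the background and summarized probes into transcript clusters. This can compress the differences of dim clusters. The deposited columns of fold change and p-value hold the authors' own comparison and were not used, nor was the right-hand annotation block, whose symbol equalled that of its row in 1 of 14688 rows. Groups came from the sample titles.

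All 29489 clusters were fitted with limma 3.58.1 in R 4.3.3 (lmFit and eBayes, group as the only term, no filter, prior of 3.47 degrees of freedom), and p-values were adjusted over all of them. An exact two-sided permutation test of 3 against 3 arrays cannot go below a p of 0.1 and was not used. The fit was tested on simulated data with the mean and spread of these clusters. Of 50 clusters changed by -1 on the log2 scale, 98% were called and 66% passed an adjusted p of 0.05, and 0.625% of 29289 unchanged clusters were called. The changed clusters were drawn at random, and the simulated scatter was independent between clusters. These shares therefore do not hold for a cluster of wide spread such as Chrna3, and do not show that uncalled subunits were unchanged. The members and lists were chosen with earlier results of these data known. Named were all subunits, list genes past both thresholds, up to 4 defining genes of a list and the 5 profiles nearest to Chrna3. Fibcd1 and Chrng share clusters with other genes and were left out. Promoter sequences and gene order are from RefSeq (GRCr8), and no coordinates of the array were used. Alternatives were repeated quantile normalization, median centring, the series matrix, an intensity trend with a robust prior, weights for arrays, leaving out dim clusters, the methods' t-test, the mean of a gene's clusters, and leaving out each array.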

Additional observations from a re-analysis of the deposited data

How the results depend on the processing

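Chrna3 was called lower under every alternative that was run, with log2 differences from -1.47 without control array 6 to -0.92 without noise array 2. These runs reuse the arrays on which Chrna3 was selected, so the repeated call is no independent evidence of its direction. Under the methods' t-test, run across all clusters, its unadjusted p was 0.0488. The lowest adjusted p of any subunit over all alternatives was 0.206, for Chrna3 among the brighter clusters.

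Leaving out 1 array gave between 1 and 2 subunits called lower, the second being Chrnb3 without noise array 2, and no subunit called higher or passing an adjusted p of 0.05. Without control array 1, noise array 3 or noise array 4 the unadjusted p of Chrnb3 from limma was above 0.05. With all the arrays, the methods' t-test gave Chrnb3 an unadjusted p of 0.0817. The count with every noise array below every control array was between 2 and 5, and the count above was between 0 and 1 (Chrna2 or Chrna6). The median log2 difference of the members, with Chrna3 among them, was between -0.25 and -0.07. Among clusters at or above the median level, which leave 6 of the 9 subunits, 1 had noise arrays below all the controls. With 1 array left out, the difference of Chrna6 ranged from -0.0019 without noise array 4, where it turned its sign, to 0.29 without noise array 3. No paired analysis was run, because the groups were pools of different rats and the labels name no pairs. All members have 1 cluster, so that the mean of a gene's clusters changes only the adjustment. Over all clusters, 260 were called lower and 171 higher, against 89 and 56 among the 14745 brighter clusters, where fewer were tested, and 151 and 100 by the methods' t-test. Leaving out 1 array gave 247 to 405 lower and 180 to 322 higher, so the background share moves with the array left out. With 1 array left out, the small differences of Chrna5 and Chrna7 ranged from 0.02 to 0.07 and from -0.08 to -0.01.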
